A study of Homo sapiens with 12 samples.

Results

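Growth factor receptor tyrosine kinases were examined in RNA-seq counts of renal carcinoma cells with and without BMAL1 depletion. The 10 receptor genes (EGFR, ERBB2, ERBB3, MET, AXL, FGFR1, PDGFRB, IGF1R, EPHA2 and DDR1) were picked by name from the 38021 gene names of the deposited count table, and all 10 were found there. The cells were 786O, a line from a clear cell renal cell carcinoma that lacks functional VHL, and WT8, its derivative in which wildtype VHL is expressed. Each line carried a lentiviral pLKO.1 vector with either a control hairpin (shControl, called scramble in the sample descriptions) or 1 hairpin against BMAL1 (shBMAL1). This gave 4 groups of 3 cultures, 786O shControl, 786O shBMAL1, WT8 shControl and WT8 shBMAL1. All 12 cultures had been infected and selected with puromycin and grew in the same serum-containing medium, so no group was free of virus or drug, and an effect of this 1 hairpin apart from BMAL1 cannot be told apart from depletion of its target. With shBMAL1, the EGFR and ERBB2 transcripts fell in both lines, AXL and IGF1R fell in 786O, and MET, FGFR1, PDGFRB and EPHA2 fell in WT8, whereas DDR1 rose in both.

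Receptor tyrosine kinases are membrane proteins that bind a ligand outside the cell, pair up and phosphorylate one another on tyrosines inside it. The phosphotyrosines recruit adaptor proteins that feed the RAS and MAP kinase cascade, PI3 kinase and AKT, and phospholipase C, and phosphatases, ubiquitin ligases and inhibitory proteins made in response end the signal. In clear cell renal carcinoma MET and AXL are known as targets of kinase inhibitors in use, and loss of VHL leaves hypoxia-inducible factors active, which are known to raise the EGFR ligand TGFA.

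Library totals ran from 33182025 to 36477509 counts, and 16838 of 26938 genes with a count were tested, of which those with an adjusted p under 0.1 in edgeR were called. Log2 changes are given ± SE and levels ± SD. The hairpin's target BMAL1, listed as ARNTL, was lower in both lines with shBMAL1, by a log2 change of -1.62 ± 0.13 (SE) in 786O and -2.48 ± 0.14 in WT8 (adjusted p 5.09e-13 and 2.79e-17, edgeR). VHL was 5.71 log2 units higher in WT8 shControl than in 786O shControl and fell by 0.60 on the log2 scale with shBMAL1 in WT8 (adjusted p 8.45e-38 and 6.78e-13), so the amount of VHL transcript also differed between the WT8 groups. All 5 renal carcinoma markers (PAX8, CDH6, KRT8, KRT18 and VIM) had more than 3 counts in a library of every group, with a summed level of 3435 to 6446 CPM (the count scaled to a common TMM-adjusted library total), and all 4 leukocyte markers stayed at 3 counts or fewer in every library. The summed level of 3 endothelial markers was at most 1.47 CPM, and that of 3 fibroblast markers 0.348 to 7.61 CPM with DCN at 3 counts or fewer in every library. LUM made up most of the fibroblast sum, with means of 2.49 CPM in 786O shControl and 6.78 in 786O shBMAL1. In WT8 its means were 0.515 CPM with shControl and 7.23 with shBMAL1. COL1A2 had 10 to 17 counts in 786O shControl and 0 in every library of the other groups. The WT8 shControl cultures stood apart in 12 genes of dividing cells, whose summed level was 577 to 601 CPM there and 2729 to 2975 CPM in the other 9 libraries. That level moved with every comparison that uses WT8 shControl, and its part in the receptor results was not tested. In bulk RNA, fewer cells of a kind and less RNA per cell cannot be told apart.

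BMAL1 is known to bind the E-box CACGTG with its partner CLOCK, and hypoxia-inducible factors bind a core of ACGTG or GCGTG. The 250 bases before each annotated start were therefore searched on both strands in RefSeq promoters (GRCh38.p14), where 8 of the 10 receptors matched with 17 windows in all. No window of these 8 genes held CACGTG, which occurred in 6.34% of all 35116 windows, and 7 of the 17 held ACGTG or GCGTG, which occurred in 43.2% of all windows. Of the 17 windows 8 were alternative starts of DDR1, 2 of them with a core, so this gene weighs heavily in the share. An E-box also contains the ACGTG core, so the searches overlap. The windows of EGFR, MET and IGF1R are printed because these genes moved differently with shBMAL1, EGFR in both lines, MET in WT8 and IGF1R in 786O. EGFR has 2 windows, of which the upstream one is printed, and the other (chr7:55109589-55109838, plus strand) also held neither CACGTG nor a core. Capitals mark the cores, read as ACGTG or GCGTG or, where the core lies on the other strand, as CACGT or CACGC. The start site follows the last base.
EGFR, chr7:55018767-55019016, plus strand, no core: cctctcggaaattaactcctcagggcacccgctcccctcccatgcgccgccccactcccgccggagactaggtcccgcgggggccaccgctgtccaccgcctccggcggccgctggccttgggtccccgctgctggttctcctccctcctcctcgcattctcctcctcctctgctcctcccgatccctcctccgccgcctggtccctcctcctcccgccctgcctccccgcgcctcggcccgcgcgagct
MET, chr7:116671946-116672195, plus strand, 1 core that begins 14 bases before the start: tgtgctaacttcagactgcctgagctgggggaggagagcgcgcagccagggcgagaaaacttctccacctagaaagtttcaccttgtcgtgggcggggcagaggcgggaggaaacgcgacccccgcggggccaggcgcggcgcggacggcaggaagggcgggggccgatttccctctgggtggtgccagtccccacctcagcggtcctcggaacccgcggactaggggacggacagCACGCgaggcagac
IGF1R, chr15:98648289-98648538, plus strand, 5 cores: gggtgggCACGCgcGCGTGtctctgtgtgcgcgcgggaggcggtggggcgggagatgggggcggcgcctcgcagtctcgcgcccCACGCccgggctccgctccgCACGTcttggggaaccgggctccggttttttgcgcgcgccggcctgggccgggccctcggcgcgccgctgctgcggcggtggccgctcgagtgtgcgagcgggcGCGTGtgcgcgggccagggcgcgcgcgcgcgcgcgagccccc
These matches describe letters in the windows and carry no reading of factor binding.

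Levels were compared between receptors as CPM per kilobase of the canonical transcript (GENCODE version 44 on GRCh37). In 786O shControl, AXL (176 ± 3.81 CPM per kilobase, SD, n = 3), MET (150 ± 2.21) and EPHA2 (130 ± 5.31) were the most abundant receptor transcripts. FGFR1 (30.9 ± 1.06), ERBB2 (26.6 ± 1.67) and EGFR (23.9 ± 2.16) followed, and the libraries of ERBB2 and EGFR overlapped. DDR1 (12.1 ± 0.263), IGF1R (3.07 ± 0.190), PDGFRB (0.362 ± 0.0721) and ERBB3 (0.0340 ± 0.0238) were lower in turn without overlap. AXL, EPHA2 and MET held the top 3 places in all 4 groups. In 786O shBMAL1, MET (146 ± 2.59) and AXL (141 ± 3.21) overlapped. With shControl in WT8, MET (66.9 ± 1.47) stood behind AXL (99.0 ± 2.52) and EPHA2 (86.8 ± 2.78), and with shBMAL1 it was at 36.2 ± 0.468 against 96.0 ± 4.30 for AXL. PDGFRB (0.958 ± 0.0505) ranked above IGF1R (0.717 ± 0.0460) in WT8 shControl, and below it in the other 3 groups. With the length of all exons in place of the canonical transcript, FGFR1 ranked behind EGFR and ERBB2 in 786O shControl and behind EGFR in 786O shBMAL1, where the libraries of the pair overlapped, and the top 3 places were held by the same receptors.

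**Figure D1:**
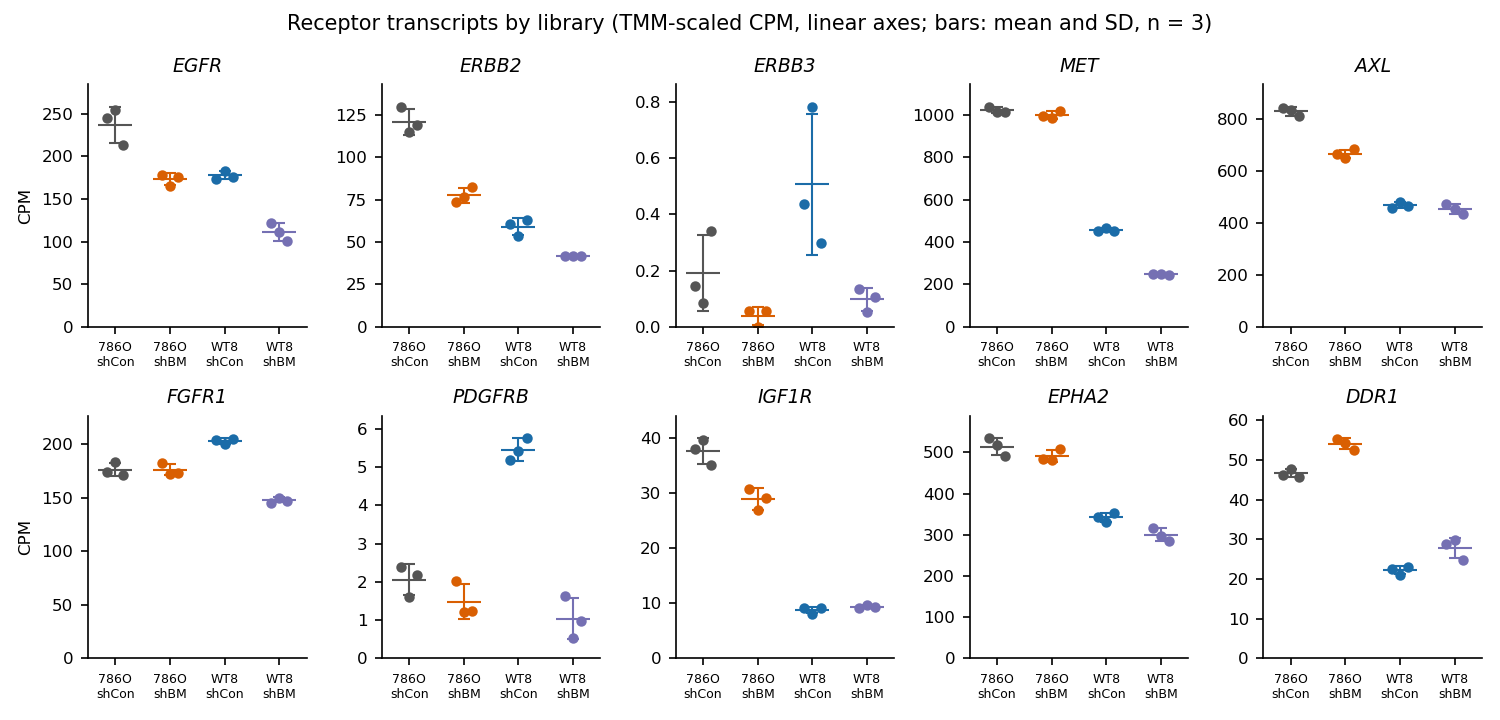
Level of each of the 10 receptor transcripts (vertical axis, CPM on a linear scale that starts at 0) in the 12 libraries, with points for libraries and bars for the mean and SD of 3 replicates (shCon is shControl, shBM is shBMAL1). MET lies at 983 to 1039 CPM in the 6 libraries of 786O, 450 to 468 CPM in WT8 shControl and 243 to 249 CPM in WT8 shBMAL1, while PDGFRB is highest in WT8 shControl at 5.19 to 5.76 CPM.

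EGFR, the receptor for EGF, TGFA and amphiregulin (GRCh37 chromosome 7, 55086710 to 55279321, plus strand), had 8389, 8867 and 7488 counts in 786O shControl and 6199, 5718 and 6116 in 786O shBMAL1. In WT8 it had 6379, 6306 and 6486 counts with shControl and 4576, 4167 and 3765 with shBMAL1. The shBMAL1 libraries were the lower ones in each line without overlap, and the lowest 3 of all 12 were those of WT8 shBMAL1. The log2 change with shBMAL1 was -0.46 ± 0.06 in 786O and -0.67 ± 0.06 in WT8 (adjusted p 1.06e-06 and 6.27e-10, edgeR), or 1.37 and 1.60 times lower. The log2 difference of WT8 shControl from 786O shControl was -0.42 ± 0.06 (adjusted p 1.11e-06). The change was larger in WT8 by an interaction of -0.22 ± 0.09 (adjusted p 0.0394), a call that was lost without 786O shControl replicate 3, 786O shBMAL1 replicate 1, WT8 shControl replicate 2 or WT8 shBMAL1 replicate 3, with values from -0.28 to -0.14 over all alternatives. EGFR shares 186 exon bases with the antisense gene EGFR-AS1, whose reads cannot be told apart from it without strand.

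ERBB2, the partner receptor that binds no ligand of its own (chromosome 17, 37844167 to 37886679, plus strand), had 4446, 4020 and 4188 counts in 786O shControl and 2566, 2673 and 2863 in 786O shBMAL1. Its WT8 libraries had 2231, 1849 and 2324 counts with shControl and 1582, 1556 and 1562 with shBMAL1. The 4 groups were ordered without overlap, with 786O shControl highest and WT8 shBMAL1 lowest. The log2 change with shBMAL1 was -0.64 ± 0.06 in 786O and -0.50 ± 0.06 in WT8 (adjusted p 1.44e-11 and 4.05e-09, edgeR), and the difference between the lines with shControl was -1.03 ± 0.06 (adjusted p 5.32e-18), which is 2.05 times lower in WT8. The interaction of 0.14 ± 0.08 was not called (adjusted p 0.154, 95% interval -0.02 to 0.30), and it was called without 786O shControl replicate 2, 786O shBMAL1 replicate 3 or WT8 shControl replicate 3 (0.08 to 0.20 over all alternatives). ERBB2 shares 571 exon bases with MIEN1 and 144 with PGAP3 on the other strand.

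ERBB3, the neuregulin receptor with little kinase activity of its own (chromosome 12, 56470583 to 56497289, plus strand), was close to the limit of detection. It had 5, 3 and 12 counts in 786O shControl and 2, 0 and 2 in 786O shBMAL1. In WT8 it had 16, 27 and 11 counts with shControl and 5, 2 and 4 with shBMAL1. It met the filter on low counts only through the WT8 shControl libraries, so its calls are a description of the group that let it pass. The summed count with shBMAL1 was 0.201 times that with shControl in 786O (4 against 20 counts, exact 95% interval 0.0501 to 0.601 for counting error only) and 0.195 times in WT8 (11 against 54, 0.0921 to 0.378). The fitted log2 changes were -2.22 ± 0.88 in 786O and -2.32 ± 0.63 in WT8 (adjusted p 0.0398 and 0.0017, edgeR), and 1.38 ± 0.58 between the lines (adjusted p 0.0302). The 786O call was lost without 786O shControl replicate 3 or 786O shBMAL1 replicate 2 (-2.60 to -1.51), and the call between the lines without 786O shControl replicate 1 or 2 or WT8 shControl replicate 2 (0.93 to 2.09). The sign of its interaction varied from -0.81 to 0.36.

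MET, the receptor for hepatocyte growth factor (chromosome 7, 116312250 to 116438431, plus strand), had 35612, 35465 and 35587 counts in 786O shControl and 34566, 34164 and 35416 in 786O shBMAL1. Its WT8 libraries had 16556, 16143 and 16618 counts with shControl and 9376, 9304 and 9097 with shBMAL1. The 786O libraries lay far above those of WT8, and within WT8 the shBMAL1 libraries were the lower ones. The log2 change with shBMAL1 in 786O was -0.03 ± 0.04 (adjusted p 0.517, 95% interval -0.11 to 0.04) and in WT8 -0.89 ± 0.04 (adjusted p 1.53e-20), a level 1.85 times lower. The interaction was -0.85 ± 0.06 (adjusted p 1.70e-15). Between the lines with shControl the log2 difference was -1.16 ± 0.04 (adjusted p 1.57e-24), which is 2.24 times lower in WT8.

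AXL, the receptor for GAS6 (chromosome 19, 41725128 to 41767671, plus strand), had 28891, 29210 and 28438 counts in 786O shControl and 23121, 22629 and 23722 in 786O shBMAL1. In WT8 it had 16787, 16540 and 17102 counts with shControl and 17812, 16915 and 16175 with shBMAL1. The shBMAL1 libraries of 786O were the lower ones without overlap, and the WT8 groups overlapped. The log2 change was -0.32 ± 0.04 in 786O (adjusted p 8.45e-08, edgeR) and -0.04 ± 0.04 in WT8 (adjusted p 0.358, 95% interval -0.13 to 0.04), with an interaction of 0.27 ± 0.06 (adjusted p 1.93e-04). WT8 shControl was 1.77 times lower than 786O shControl (log2 -0.83 ± 0.04, adjusted p 2.43e-19). MET and AXL, the most abundant pair per kilobase in 786O, were thus each called with shBMAL1 in 1 line, and not in the same one.

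FGFR1, a receptor for fibroblast growth factors (chromosome 8, 38257733 to 38326352, minus strand), had 5948, 6386 and 6021 counts in 786O shControl and 6326, 5990 and 6034 in 786O shBMAL1. Its WT8 libraries had 7495, 6901 and 7551 counts with shControl and 5471, 5623 and 5500 with shBMAL1. The 786O groups overlapped, WT8 shControl was the highest group and WT8 shBMAL1 the lowest. The log2 change with shBMAL1 in 786O was 0.00 ± 0.04 (95% interval -0.08 to 0.08), with a sign that varied between alternatives from -0.03 to 0.02. In WT8 it was -0.46 ± 0.04 (adjusted p 1.22e-11, edgeR), with an interaction of -0.46 ± 0.06 (adjusted p 6.18e-08). Between the lines FGFR1 was higher in WT8 shControl by 0.21 ± 0.04 on the log2 scale (adjusted p 4.79e-05). It shares 138 exon bases with LETM2 and 387 with a long noncoding RNA, both on the other strand.

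PDGFRB, the receptor for PDGF-B (chromosome 5, 149493402 to 149535435, minus strand), had 82, 56 and 77 counts in 786O shControl and 70, 42 and 43 in 786O shBMAL1. In WT8 it had 191, 187 and 212 counts with shControl and 61, 20 and 36 with shBMAL1. WT8 shControl stood above the other 3 groups, which overlapped one another. In WT8 the log2 change with shBMAL1 was -2.39 ± 0.25 (adjusted p 8.36e-10, edgeR), or 5.23 times lower, and the summed count was 0.190 times that with shControl (117 against 590, exact 95% interval 0.155 to 0.232). In 786O it was -0.47 ± 0.26 (adjusted p 0.151, 95% interval -0.98 to 0.04), and this passed without 786O shControl replicate 2, 786O shBMAL1 replicate 1 or WT8 shBMAL1 replicate 1 or 2, with values from -0.75 to -0.35 over all alternatives. The interaction was -1.92 ± 0.36 (adjusted p 5.18e-05) and the difference between the lines 1.40 ± 0.23 (adjusted p 2.62e-06).

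IGF1R, the receptor for insulin-like growth factors (chromosome 15, 99191768 to 99507759, plus strand), had 1304, 1385 and 1232 counts in 786O shControl and 1070, 930 and 1013 in 786O shBMAL1. Its WT8 libraries had 336, 280 and 333 counts with shControl and 343, 362 and 350 with shBMAL1. Both WT8 groups lay below both 786O groups. The log2 difference between the lines with shControl was -2.10 ± 0.08 (adjusted p 1.82e-22, edgeR), which is 4.28 times lower in WT8. With shBMAL1 it changed by -0.38 ± 0.08 in 786O (adjusted p 8.61e-05) and 0.10 ± 0.09 in WT8 (adjusted p 0.351, 95% interval -0.08 to 0.27). The interaction was 0.48 ± 0.12 (adjusted p 8.74e-04).

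EPHA2, a receptor for ephrin-A ligands on neighbouring cells (chromosome 1, 16450832 to 16482564, minus strand), had 18302, 18071 and 17311 counts in 786O shControl and 16904, 16738 and 17718 in 786O shBMAL1, and these groups overlapped. In WT8 it had 12587, 11443 and 13014 counts with shControl and 11944, 11121 and 10687 with shBMAL1. Scaled to library totals, all WT8 shBMAL1 libraries (286 to 317 CPM) lay below those of WT8 shControl (332 to 354 CPM). The log2 change with shBMAL1 was -0.06 ± 0.04 in 786O (adjusted p 0.262) and -0.19 ± 0.04 in WT8 (adjusted p 3.44e-04), and between the lines it was -0.59 ± 0.04 (adjusted p 3.28e-14, edgeR). The interaction of -0.13 ± 0.06 (adjusted p 0.0939) was lost in 10 of 17 alternatives, those without a filter on low counts or without 1 of 9 libraries (all but 786O shControl replicate 1, WT8 shControl replicate 2 and WT8 shBMAL1 replicate 1), with values from -0.16 to -0.08.

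DDR1, a receptor tyrosine kinase for collagen (chromosome 6, 30844198 to 30867933, plus strand), had 1586, 1669 and 1610 counts in 786O shControl and 1927, 1889 and 1828 in 786O shBMAL1. Its WT8 libraries had 823, 726 and 850 counts with shControl and 1083, 1109 and 932 with shBMAL1. The shBMAL1 libraries were the higher ones in each line without overlap. The log2 change was 0.21 ± 0.06 in 786O and 0.33 ± 0.07 in WT8 (adjusted p 0.00682 and 1.00e-04, edgeR), and WT8 shControl was 2.10 times lower than 786O shControl (log2 -1.07 ± 0.07, adjusted p 1.94e-16). The interaction of 0.11 was not called (adjusted p 0.35, 95% interval -0.08 to 0.30), but was without WT8 shBMAL1 replicate 3 (0.07 to 0.19 over all alternatives).

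**Figure D2:**
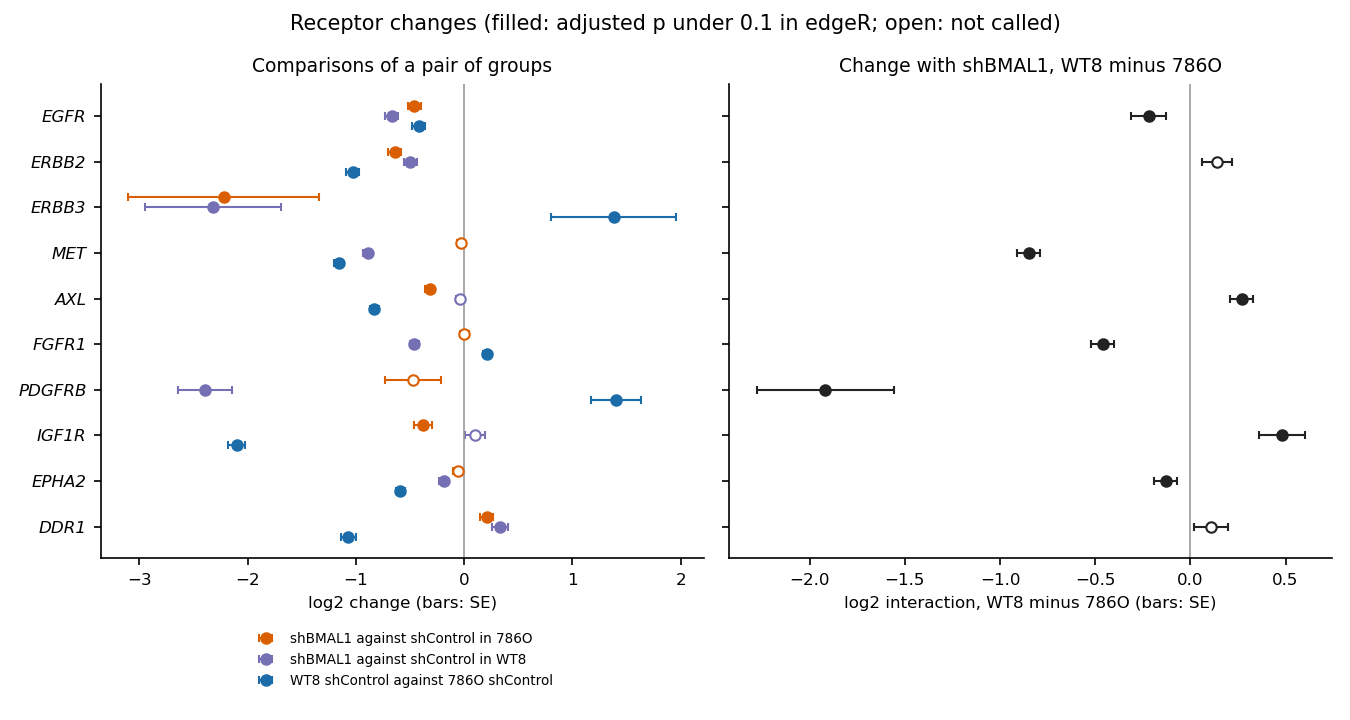
Log2 changes of the 10 receptors (horizontal axes, with SE as bars) between groups on the left (3 comparisons) and the interaction, WT8 minus 786O, on the right, where filled points passed an adjusted p under 0.1 in edgeR and open points did not. ERBB3 is left out of the right panel, MET has an interaction of -0.85 and PDGFRB of -1.92, and AXL (0.27) and IGF1R (0.48) lie on the other side of 0.

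The first comparison asked what BMAL1 depletion goes with in cells that lack functional VHL. ERBB3 was left out of the counts of receptors that follow, a choice made after seeing the data, because it met the filter only through WT8 shControl. Of the other 9 receptors in 786O, EGFR, ERBB2, AXL and IGF1R fell and DDR1 rose, so 5 of 9 were called against 48.9% of all genes tested. The 4 that fell compare with 24.4% of all genes called lower, and the 1 that rose with 24.5% called higher. The falls ran from 1.25 times for AXL to 1.56 times for ERBB2. The median log2 change of the 9 receptors was -0.32, beside 0.00 over all genes. MET, FGFR1, PDGFRB and EPHA2 did not pass.

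The second asked the same in cells that express wildtype VHL. In WT8, EGFR, ERBB2, MET, FGFR1, PDGFRB and EPHA2 fell and DDR1 rose, 7 of 9 receptors against 69.8% of all genes. Among them 6 fell, beside 36.9% of all genes, and 1 rose, beside 32.9%. The falls ran from 1.14 times for EPHA2 to 5.23 times for PDGFRB, with MET at 1.85 times. The median log2 change was -0.46, beside -0.04 over all genes.

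Between the lines with shControl, where WT8 differs from 786O by the VHL it expresses and by its derivation, all 9 receptors were called, against 79.5% of all genes. The 7 lower in WT8, beside 40.1% of all genes, were led by IGF1R, MET and DDR1, and the 2 higher, beside 39.3%, were FGFR1 and PDGFRB. The median log2 difference was -0.83, beside 0.00 over all genes. As this comparison uses the control libraries of both lines, its values share their error with the other comparisons.

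The interaction, which subtracts the log2 change in 786O from that in WT8, was called for 7 of 9 receptors, against 56.0% of all genes. It was positive for AXL and IGF1R, 2 of 9 beside 27.4% of all genes, and negative for EGFR, MET, FGFR1, PDGFRB and EPHA2, 5 of 9 beside 28.6%. Its median over the receptors was -0.13, beside -0.03 over all genes. Whether these shares differ from those of all genes was not tested, and with 9 receptors 1 gene moves a share far.

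Of 48 other receptor tyrosine kinases, 26 passed the filter on low counts. With shBMAL1, 8 rose and 10 fell in 786O, where 24.5% of all genes were called higher and 24.4% lower, and 5 rose and 12 fell in WT8, where the shares were 32.9% and 36.9%, with median log2 changes of -0.09 and -0.33 (-0.31 with genes at 3 counts or fewer in both groups left out and a gene at 0 in 1 group at its bound). Between the lines 5 were higher and 15 lower in WT8 (median -0.45), beside 39.3% and 40.1% of all genes. The interaction was called for 18 of 26, beside 56.0% of all genes. Some of these genes had few counts. ROR2, named after its values were seen, was called lower in WT8 from 0, 4 and 0 counts against 0 in every shBMAL1 library. Among the 21 with a mean of at least 10 counts over the libraries compared, 8 rose and 8 fell in 786O. The shares of all genes with such a mean were 26.1% and 26.1%. Among the 21 in WT8 5 rose and 10 fell, beside 34.7% and 38.0%. Those that fell include AATK, named after its values were seen, with 28 to 38 counts in WT8 shControl and at most 9 in any other library. It met the filter only through WT8 shControl, so its call there describes the group that let it pass. FGFR4, a receptor for FGF19, was at 68.7 ± 3.70 CPM in 786O shControl and 71.3 ± 2.05 in 786O shBMAL1, and rose in WT8 from 52.3 ± 2.33 to 70.9 ± 1.98 CPM (SD, n = 3; log2 0.44 ± 0.05, adjusted p 7.06e-09). EPHB2, a receptor for ephrin-B ligands, fell in WT8 from 32.5 ± 1.60 to 21.5 ± 1.13 CPM (log2 -0.59 ± 0.06, adjusted p 4.09e-10) and was at 111 ± 8.29 and 105 ± 4.93 CPM in 786O, a difference that was called without 786O shControl replicate 3. RYK, a Wnt receptor without an active kinase, fell in both lines by the same log2 change of -0.41 ± 0.05 (adjusted p 8.15e-09 and 2.51e-09), with an interaction of 0.00 whose sign varied between alternatives from -0.01 to 0.04. TYRO3 and MERTK, the relatives of AXL that also bind GAS6 and were named after their values were seen, followed AXL in sign in 786O, with log2 changes of -0.16 ± 0.06 and -0.63 ± 0.12 (adjusted p 0.0348 and 5.08e-05), of which that of TYRO3 was not called without 786O shControl replicate 1. In WT8, TYRO3 rose by 0.51 ± 0.06 (adjusted p 1.03e-08) and MERTK had 0.12 ± 0.11 (adjusted p 0.334). The interaction was positive for both, 0.68 ± 0.09 and 0.76 ± 0.16 (adjusted p 7.42e-08 and 1.99e-04).

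**Figure D3:**
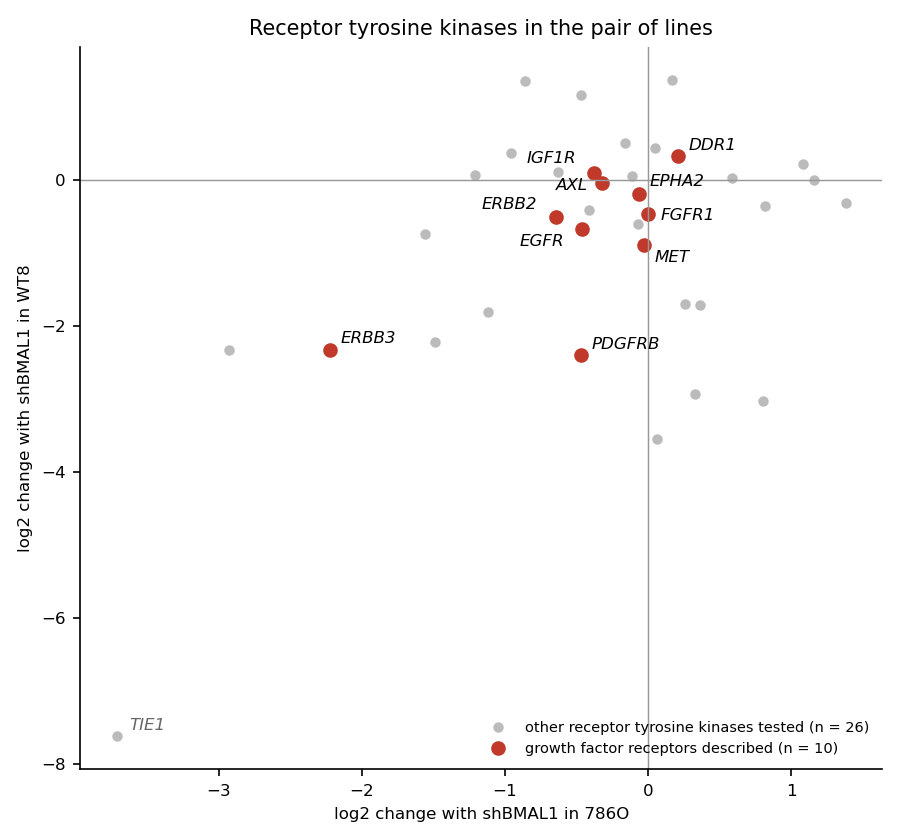
Log2 change with shBMAL1 in 786O (horizontal axis) and in WT8 (vertical axis) for the 10 receptors described (red) and the 26 other receptor tyrosine kinases tested (grey), each point a gene with its fitted value over 3 libraries a group. MET, FGFR1, EPHA2 and PDGFRB lie below 0 on the vertical axis, and TIE1, at the far lower left, had 1 to 5 counts in WT8 shBMAL1, so its fitted value rests on few counts.

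Among 28 ligand genes of these receptors, 19 passed the filter on low counts. With shBMAL1, 7 rose and 8 fell in each line, with medians of 0.13 in 786O (-0.02 with genes at 3 counts or fewer in both groups left out) and 0.02 in WT8. The shares of all genes called higher and lower were 24.5% and 24.4% in 786O. In WT8 they were 32.9% and 36.9%, so the WT8 counts lie near the background. Between the lines the WT8 libraries had 6 higher and 13 lower (median -1.81), beside 39.3% and 40.1% of all genes. The interaction was called for 15 of 19, beside 56.0% of all genes. TGFA, the EGFR ligand, was at 83.1 ± 2.25 CPM in 786O shControl and 65.6 ± 1.09 in 786O shBMAL1, and in WT8 at 23.4 ± 1.77 with shControl and 8.15 ± 0.708 with shBMAL1. The 4 groups of TGFA did not overlap, and it fell with shBMAL1 by log2 changes of -0.34 ± 0.06 in 786O and -1.52 ± 0.07 in WT8 (adjusted p 1.53e-05 and 2.32e-19, interaction -1.18 ± 0.10, adjusted p 7.67e-13). The other EGFR ligands tested, AREG, EREG, HBEGF, EGF and BTC, were named after their values were seen, and they differed among themselves. EGF was at 4.20 ± 0.275 and 3.48 ± 0.271 CPM in 786O (log2 -0.27 ± 0.14, adjusted p 0.125, called without 786O shBMAL1 replicate 1) and fell in WT8 from 8.74 ± 0.777 to 2.57 ± 0.0931 CPM (log2 -1.76 ± 0.14, adjusted p 1.43e-13), the sign of TGFA in both lines. BTC (betacellulin) had 0 to 20 counts in a library and was not called in 786O or WT8, where its sign varied with the library left out and it was called without WT8 shControl replicate 1, which leaves that group at 0. AREG (amphiregulin) rose in 786O from 8.16 ± 0.689 to 26.9 ± 2.85 CPM (log2 1.72 ± 0.12, adjusted p 1.21e-14), and in WT8 from 0.434 ± 0.0722 to 0.988 ± 0.380 CPM (log2 1.18 ± 0.28, adjusted p 3.33e-04). EREG (epiregulin) rose from 41.3 ± 0.685 to 71.7 ± 5.85 CPM in 786O and from 5.14 ± 0.655 to 12.4 ± 1.28 CPM in WT8 (adjusted p 4.30e-11 and 8.78e-14). HBEGF rose in 786O by 0.56 ± 0.09 (adjusted p 1.47e-06) and had -0.18 ± 0.09 in WT8 (adjusted p 0.0997), a call lost in 12 of 18 alternatives, with DESeq2, no filter, only the groups compared or without 1 of 9 libraries (all but 786O shControl replicate 3, WT8 shControl replicate 1 and WT8 shBMAL1 replicate 1), with values from -0.27 to -0.09. EGFR transcripts and its ligands thus did not move one way.

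NRG1, the neuregulin bound by ERBB3, rose in WT8 from 12.7 ± 0.453 to 20.5 ± 0.851 CPM (log2 0.69 ± 0.07, adjusted p 4.91e-11), and in 786O from 55.7 ± 0.748 to 61.1 ± 0.482 CPM (log2 0.13 ± 0.06, adjusted p 0.0676), a call lost in 7 of 18 alternatives, without a filter on low counts or without any 1 of the 6 libraries of 786O (0.12 to 0.14). GAS6, the AXL ligand, was at 152, 156 and 153 CPM in 786O shControl and at 108, 112 and 110 in 786O shBMAL1, and the WT8 libraries lay between 32.8 and 40.1 CPM in both groups. It fell in 786O by 0.48 ± 0.05 on the log2 scale, had 0.02 ± 0.06 in WT8, and was lower in WT8 shControl than in 786O shControl by a log2 change of -2.04 ± 0.06 (adjusted p 3.46e-09, 0.76 and 8.66e-27). AXL and GAS6 both fell in 786O, neither was called in WT8, where GAS6 had -0.06 without shControl replicate 2, and the interaction was positive for both.

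Of 6 genes for IGF-binding proteins, which hold insulin-like growth factors away from IGF1R or carry them to it, 4 passed the filter. In 786O 2 rose and 2 fell, beside 24.5% and 24.4% of all genes. In WT8 none rose and 3 fell, beside 32.9% and 36.9%. IGFBP4 had 0 to 3 counts in the WT8 libraries and was not called with shBMAL1 in that line. IGFBP3 was at 428 ± 7.75 CPM in 786O shControl and 613 ± 21.4 in 786O shBMAL1, and in WT8 at 105 ± 4.51 with shControl and 17.7 ± 2.05 with shBMAL1. The log2 change of IGFBP3 was 0.52 ± 0.05 in 786O and -2.57 ± 0.06 in WT8, which differ by -3.09 ± 0.08 (interaction, adjusted p 1.52e-27). IGFBP1 did the same from lower levels, 6.15 ± 0.471 to 12.4 ± 0.687 CPM in 786O and 18.7 ± 1.67 to 0.890 ± 0.0121 CPM in WT8 (interaction -5.40 ± 0.17, adjusted p 2.30e-24). IGFBP6 fell in both lines, by log2 changes of -0.77 ± 0.08 and -1.34 ± 0.09 (adjusted p 1.68e-09 and 4.81e-16).

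**Figure D4:**
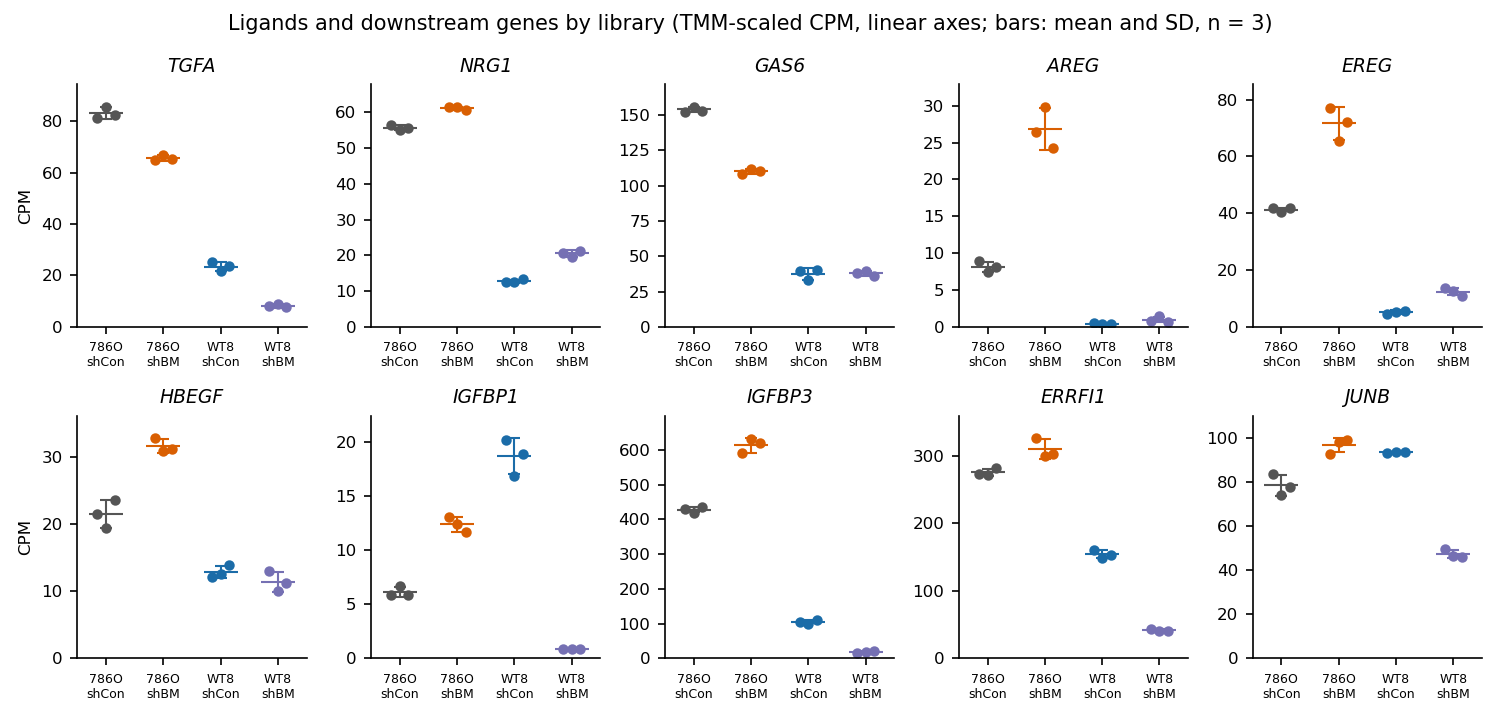
Level of 6 ligand genes, 2 IGF-binding protein genes, ERRFI1 and JUNB (vertical axis, CPM on a linear scale that starts at 0) in the 12 libraries, with points for libraries and bars for the mean and SD of 3 replicates. TGFA is lowest in WT8 shBMAL1 at 7.55 to 8.93 CPM, AREG is highest in 786O shBMAL1 at 24.3 to 29.9 CPM, and ERRFI1 is at 40.4 to 43.3 CPM in WT8 shBMAL1 against 149 to 160 CPM in WT8 shControl.

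All 31 adaptor and kinase genes that act behind the receptors passed the filter. In 786O 7 rose and 9 fell, in WT8 14 rose and 8 fell, and between the lines 13 were higher and 14 lower, with medians of -0.02, 0.08 and -0.01. Over all genes tested, 24.5% were called higher and 24.4% lower in 786O, and 32.9% and 36.9% in WT8. Between the lines the shares were 39.3% and 40.1%, so the adaptor counts there and in 786O lie near the background. SHC1, an adaptor that links receptors to RAS, was at 183 ± 0.897 and 177 ± 4.30 CPM in 786O and fell in WT8 from 219 ± 4.99 to 137 ± 2.94 CPM (log2 -0.68 ± 0.04, adjusted p 2.28e-16). PLCG1, the phospholipase that receptors activate, was at 204 ± 3.47 and 202 ± 2.64 CPM in 786O and fell in WT8 from 275 ± 5.46 to 177 ± 4.38 CPM (log2 -0.64 ± 0.04, adjusted p 7.25e-16). For both the interaction was negative, -0.63 ± 0.06 and -0.62 ± 0.06 (adjusted p 3.05e-11 and 2.85e-11), the sign MET and FGFR1 had. IRS2, the adaptor of IGF1R and the insulin receptor, fell in both lines, by log2 changes of -0.37 ± 0.05 in 786O and -1.20 ± 0.06 in WT8 (adjusted p 1.44e-06 and 2.49e-18).

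Of 25 negative regulators of receptor signaling (phosphatases, ubiquitin ligases and feedback inhibitors), 15 rose and 3 fell with shBMAL1 in 786O, where the median log2 change was 0.23, and 8 rose and 8 fell in WT8 with a median of 0.05. Of all genes, 24.5% were called higher and 24.4% lower in 786O, and 32.9% and 36.9% in WT8, so the WT8 counts lie near the background. The interaction was called negative for 12 and positive for 4 (median -0.27), beside 28.6% and 27.4% of all genes (median -0.03). ERRFI1, an inhibitor that binds the EGFR kinase, rose in 786O from 275 ± 5.51 to 310 ± 14.6 CPM (log2 0.17 ± 0.04, adjusted p 0.00178) and fell in WT8 from 154 ± 5.58 to 41.4 ± 1.59 CPM (log2 -1.89 ± 0.05, adjusted p 7.11e-28). PTPN12, a tyrosine phosphatase, rose in both lines by 0.55 ± 0.05 and 0.23 ± 0.05 (adjusted p 1.61e-11 and 1.01e-04). PTPRJ, a receptor-type phosphatase, fell in both by log2 changes of -0.56 ± 0.05 and -0.30 ± 0.05 (adjusted p 5.26e-12 and 1.11e-06).

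Of 13 early-response genes that MAP kinase signals induce, 12 passed the filter. In 786O 7 rose and none fell (median 0.30), beside 24.5% and 24.4% of all genes, and in WT8 2 rose and 8 fell (median -0.93), beside 32.9% and 36.9%. The difference between the lines was not tested for the list as a whole. By gene, the interaction was called negative for 9 and positive for 2 (median -1.13), beside 28.6% and 27.4% of all genes (median -0.03). JUNB, a subunit of the AP-1 factor, rose in 786O from 78.5 ± 4.70 to 96.8 ± 3.25 CPM (log2 0.30 ± 0.05, adjusted p 8.38e-06) and fell in WT8 from 93.5 ± 0.310 to 47.4 ± 1.84 CPM (log2 -0.98 ± 0.05, adjusted p 2.72e-18). IER3, an immediate early gene, had a log2 change of -0.84 ± 0.07 in WT8 (adjusted p 9.65e-13) and -0.04 ± 0.07 in 786O (adjusted p 0.708), where its sign varied between alternatives. FOSL1, another AP-1 subunit, had 0.13 ± 0.05 in 786O (adjusted p 0.0219), a call lost without 786O shControl replicate 2, and -0.05 ± 0.05 in WT8 (adjusted p 0.322), which was called without WT8 shControl replicate 2. The 12 genes of dividing cells changed as well. With shBMAL1 in WT8, 12 rose and none fell (median 2.26), beside 32.9% and 36.9% of all genes, whereas most early-response genes fell there. In 786O, 4 genes of dividing cells rose and 2 fell, beside 24.5% and 24.4%.

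**Figure D5:**
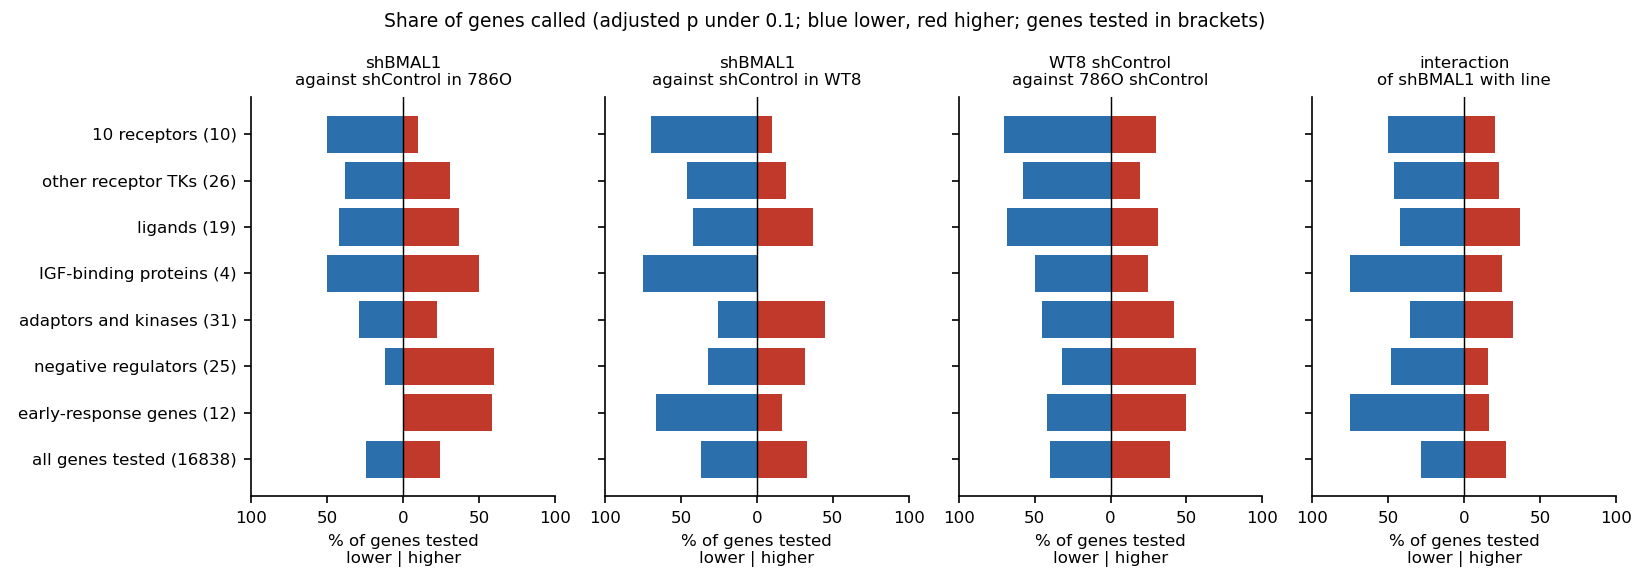
Share of the genes tested in each list that were called higher (red, to the right) or lower (blue, to the left) in the 4 comparisons (horizontal axis, percent of genes tested, from 0 outward), with the number tested in brackets. The receptor bars include ERBB3. Early-response genes are called only higher in 786O (7 of 12) and mostly lower in WT8 (8 of 12), and the bottom bars give all 16838 genes tested, 24.5% higher and 24.4% lower in 786O.

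The genes whose log2 CPM was most like that of 3 receptors over the 12 libraries were ranked by Pearson correlation among 12948 genes with a mean of at least 50 counts. The libraries fall into 4 groups, so the values mostly describe group means. For EGFR the first 3 were MYLK (0.991), LOC102723728 (0.989) and NOMO3 (0.986), for MET they were GGT1 (0.999), EFEMP2 (0.998) and QSOX1 (0.997), and for AXL they were SRSF7 (0.995), PTGIS (0.994) and PLCB3 (0.994). NOMO3 has near-identical copies, so its counts are uncertain. Values above 0.9 were common, with 407 genes for EGFR, 1286 for MET and 1263 for AXL.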

How the data were processed

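RNA was measured in 12 cultures of 786O and WT8 cells, 3 per group. According to the study's methods and the labels, the authors sequenced paired reads from stranded mRNA libraries, used SeqMan NGen for alignment to GRCh37 and took counts from ArrayStar, while the submitters' processing notes name STAR, hg38 and DESeq2. The annotation and the use of strand in counting are not given in the sources used here. The deposited values were estimated counts per gene, in which 0.028 stood for 0 (47.0% of values) and 5.67% of the others were not whole at a tolerance of 1e-06. The stand-in was set to 0, values were rounded and the 98 lines with repeated names were summed by name. Of the 10 receptors, 1 (EGFR) had values that were not whole.

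Genes were filtered with filterByExpr (10100 of 26938 removed), scaled by TMM (0.948 to 1.04) and fitted over all 12 libraries with a mean per group with the robust quasi-likelihood test of edgeR 4.0.16 (R 4.3.3). Genes were called at a Benjamini-Hochberg adjusted p under 0.1 over 16838 genes, the false discovery rate of the study. SE was taken as the absolute log2 change over the root of the F statistic, and intervals are 1.96 SE. CPM uses TMM-scaled totals. Depth was 33182025 to 36477509 counts, intervals of summed counts cover counting error only, and p-values measure the spread between cultures the labels call biological replicates. Alternatives were DESeq2 1.42.0, RLE size factors, no filter, a replicate block, only the groups compared, halved counts and leaving out each library. Counts of receptors without ERBB3 and of list genes with a mean of at least 10 counts over the libraries compared were added after seeing the data. The test was run on simulated data first.

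Names and lengths came from GENCODE version 44 on GRCh37, promoters from RefSeq (GRCh38.p14), where ERBB3 and FGFR1 had no entry. The named genes were the 10 receptors, ARNTL, VHL, the 3 most abundant tested genes of each list, and for EGFR, MET and AXL the 3 genes most like them. A further 7 (AREG, BTC, EGF, EREG, HBEGF, MERTK and TYRO3) were added after their values were seen. The receptors and lists were chosen with earlier results of these data known.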

Additional observations from a re-analysis of the deposited data

Results flagged for a closer look

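The genes looked at here were the 10 receptors, 18 genes from the lists, 7 added after their values were seen, ARNTL and VHL. Over all genes tested, 56.0% had a called interaction, and whether the named genes differ from that share was not tested. The effect of shBMAL1 differed between 786O and WT8, by the interaction in edgeR at an adjusted p under 0.1, for 31 of the genes named. Values are the log2 change in WT8 minus that in 786O, with no explanation offered. Among the receptors these were EGFR (-0.22), MET (-0.85), AXL (0.27), FGFR1 (-0.46), PDGFRB (-1.92), IGF1R (0.48) and EPHA2 (-0.13), of which EGFR and EPHA2 lost the call in some alternatives, and among other receptor tyrosine kinases EPHB2 (-0.52), FGFR4 (0.39), MERTK (0.76) and TYRO3 (0.68). Among ligands and binding proteins they were GAS6 (0.51), TGFA (-1.18), EGF (-1.49), NRG1 (0.56), EREG (0.47), HBEGF (-0.74), IGFBP1 (-5.40), IGFBP3 (-3.09) and IGFBP6 (-0.57). Among adaptors and negative regulators they were PLCG1 (-0.62), SHC1 (-0.63), IRS2 (-0.83), ERRFI1 (-2.07), PTPN12 (-0.31) and PTPRJ (0.26), and among early-response genes FOSL1 (-0.18), JUNB (-1.28) and IER3 (-0.81). ARNTL itself (-0.86) and VHL (-0.65) also differed, so depletion of the target was deeper in WT8 and the VHL transcript fell there. The part of either in the receptor values was not tested.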

How the results depend on the processing

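Of 40 receptor results (10 receptors in 4 comparisons), 31 kept direction and call under every alternative run, and of 705 receptor values 661 did, 19 lost a call, 8 gained one and 17 changed sign. The receptors that changed are EGFR, ERBB2, ERBB3, FGFR1, PDGFRB, EPHA2 and DDR1, with values in the report. ERBB3 was removed by the filter when only the 786O groups were fitted and when counts were halved. Sign changes were of values that were not called, near 0 or, for ERBB3 and BTC, undetermined at their counts, and the cause was not tested. In 786O, FGFR1 had -0.00 without a filter and with only the groups compared, and leaving out 1 library gave -0.03 to 0.02. Leaving out 1 library also gave -0.03 to 0.11 for VHL and -0.09 to 0.01 for IER3 in 786O, -0.06 to 0.08 for GAS6 in WT8, and -0.04 to 0.14 for IGFBP6 and -0.05 to 0.00 for PTPRJ between the lines. PTPRJ between the lines had 0.01 with DESeq2 and RLE size factors and 0.00 with only the groups compared, or halved counts. The interaction of RYK was -0.01 with DESeq2, RLE size factors and halved counts, and -0.01 to 0.04 over all alternatives, and that of ERBB3 was -0.81 to 0.36 without 1 library. BTC ranged without 1 library from -0.13 to 0.43 in 786O, -0.40 to 4.23 in WT8 and -0.53 to 4.10 for the interaction, the highest in the last pair without WT8 shControl replicate 1. IGF-binding proteins called between the lines rose from 3 to 5 with no filter.

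Replicate numbers did not pair the samples, as deviations from group means of same-numbered libraries correlated from -0.0573 to 0.0684. With a replicate block, 8054, 11624, 13268 and 9247 genes were called in the 4 comparisons. Of the 10 receptors, here with ERBB3 included, 6, 8, 10 and 7 were called, the same counts as without the block. No alternative moved the median over all genes by more than 0.1 on the log2 scale. Depth limited ERBB3 and, less so, PDGFRB.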
